A study of Mus musculus with 37 samples.

Results

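CT010467.1, Gm42418 and AY036118 are 3 overlapping annotated features of mouse chromosome 17 whose sequence is that of the nuclear ribosomal RNA (rRNA) precursor or of its opposite strand. They are 3 of the 54752 features, spike-ins left out, that were counted in single mouse oocytes. The members were chosen by their measured share of counts in these oocytes, so their shares, ratios, counts per spike-in count and stage contrasts are given as a description, with no test. RNA of 37 single oocytes of young adult C57BL/6 females was made into complementary DNA by Smart-seq2, which primes on poly(A) stretches and does not keep the strand, and was sequenced in batches labelled A and B. The females received pregnant mare serum gonadotropin (PMSG). Batch A held 6 oocytes at the germinal vesicle stage (GV, taken from the ovary with the nucleus intact) and 6 at metaphase of the second meiotic division (MII, collected from the ampulla after human chorionic gonadotropin). Batch B held 10 GV oocytes and 15 at metaphase of the first division (MI), which were cultured in M16 medium from oocytes with a visible germinal vesicle. An MII library holds no polar body, since it was taken off with a pipette; every oocyte had been picked by its shape, treated with hyaluronidase and stripped of its zona pellucida in acid Tyrode's. MI and MII oocytes were never in the same batch, so stages were compared within a batch. No label ties an oocyte to a mouse, so a p-value here measures the spread between oocytes and not between animals.

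Ribosomal RNA is transcribed by RNA polymerase I in the nucleolus as a long precursor, which is cut and chemically modified into the RNAs of the small and large ribosomal subunits. Growing oocytes make and store ribosomes for the embryo, and the fully grown oocyte falls silent in transcription while its nucleolus becomes a compact nucleolus-like body. Ribosomal RNA makes up most of the RNA of a cell and lacks the poly(A) tail of messenger RNA, so a poly(A)-primed library is made to leave it out.

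In the GENCODE M21 annotation of GRCm38, CT010467.1 (ENSMUSG00000106106.2, biotype rRNA) covers chr17:39846353-39848827 on the minus strand. Gm42418 (ENSMUSG00000098178.1, annotated as a lincRNA, a long RNA without a coding sequence) covers chr17:39846958-39848788 on the plus strand. AY036118 (ENSMUSG00000105361.1, also a lincRNA) covers chr17:39847113-39848035 on the minus strand. The RefSeq table of the same assembly lists Rn18s-rs5, a pseudogene of the small-subunit rRNA, at chr17:39846354-39848202, which holds 1848 of the 1849 bases of the longer transcript of CT010467.1. Of the 1831 exon bases of Gm42418, 1244 lie opposite that transcript and 1822 lie opposite some exon of CT010467.1, which leaves 9 bases to Gm42418 alone. All 923 bases of AY036118 lie inside the same transcript and inside Gm42418. The overlap therefore covers most of Gm42418 and the whole of AY036118, and reads from an overlapped stretch cannot be told apart in a library without strand.

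**Figure D1:**
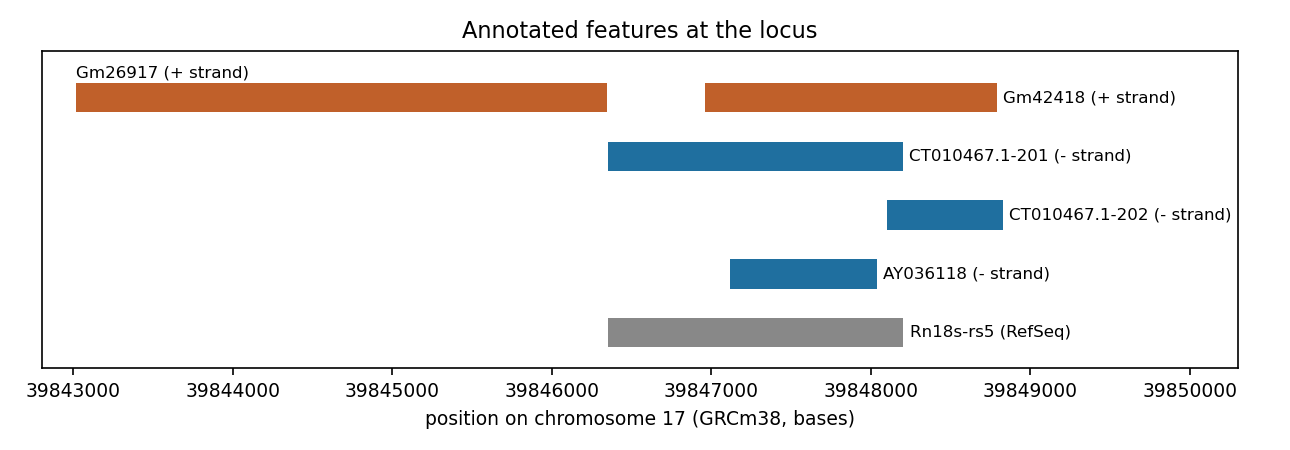
Map of the annotated features at the locus; the x axis is the position on chromosome 17 of GRCm38 in bases, orange bars are plus-strand features, blue bars minus-strand features and the grey bar the RefSeq entry. AY036118 lies inside both the longer CT010467.1 transcript and Gm42418, and Gm26917 ends 11 bases before the lowest position of CT010467.1.

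The sequences show the relation base by base. The longer transcript of CT010467.1 is the reverse complement of the small-subunit rRNA: the complement of its end (chr17:39846353-39846382, plus strand) is the start of that rRNA. Its own start (chr17:39848172-39848201, minus strand) is the complement of the rRNA's end, with its first 15 bases in capitals. Gm42418 carries the complement of those capitals, also in capitals, and runs on in lower case past the end of the small-subunit rRNA (chr17:39848187-39848216, plus strand). All sequences are on GRCm38, read 5′ to 3′ from exons of the GENCODE M21 transcripts.
reverse complement of CT010467.1 end: tacctggttgatcctgccagtagcatatgc
CT010467.1 start: TAATGATCCTTCCGCaggttcacctacgga
Gm42418 across the end of CT010467.1: GCGGAAGGATCATTAacgggagactgtgga

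AY036118 starts at base 167 of the longer CT010467.1 transcript and holds no base that the others lack. To show that identity, the lines give its start (chr17:39848006-39848035, minus strand), the same place in CT010467.1 (chr17:39848021-39848050, minus strand) and the opposite place in Gm42418 (chr17:39848021-39848050, plus strand). Capitals mark the first 15 bases of AY036118 and their complement.
AY036118 start: ATCAACGCAAGCTTAtggcccgcacttact
CT010467.1 across the start of AY036118: aagggcagggacttaATCAACGCAAGCTTA
Gm42418 opposite the start of AY036118: TAAGCTTGCGTTGATtaagtccctgccctt

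Since Smart-seq2 primes on runs of A, the longest such run in Gm42418, the member on the rRNA's own strand, is shown in capitals (chr17:39847155-39847184, plus strand). It is 6 bases long, and the longest run of A in the longer CT010467.1 transcript and in AY036118 is 4 bases. Whether priming took place there was not tested.
longest run of A in Gm42418: gcgtttactttgAAAAAAttagagtgttca

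The members differ in base composition where they do not overlap. G and C made up 55.4% of the bases of the longer CT010467.1 transcript, 60.2% of Gm42418 and 54.4% of AY036118. The 587 bases of Gm42418 beyond that transcript had 71.0% G and C, against 55.1% in the 1244 bases within it. None of the 141763 other transcripts of GENCODE M21 shared a run of 31 bases with a member on either strand.

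CT010467.1 held more counts than any other feature in each of the 37 oocytes, and Gm42418 was next in each of them. The counts are RSEM expected counts, reads that the RSEM program divides among the features they fit, and a share is a percent of all counts outside the spike-ins. These totals ran from 2.71e+06 (MI oocyte 15) to 1.94e+07 (MI oocyte 8), with a median of 1.15e+07. At this depth the 95% Wilson interval of a single oocyte's share was at most 0.116 percentage points wide for CT010467.1 and 0.0759 for Gm42418. These intervals cover counting error only, not the division of reads between overlapping features.

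CT010467.1, the reverse complement of the small-subunit rRNA, held from 7.24% (GV oocyte 5) to 21.0% (GV oocyte 3) of the counts of the 6 GV oocytes of batch A, with a median of 16.1%. In the 6 MII oocytes of that batch its share ran from 14.6% to 29.98%, with a median of 21.2%. The ranges overlapped, and 3 of the 6 MII oocytes lay above the highest GV oocyte. In the 10 GV oocytes of batch B the share ran from 20.7% to 34.0% (median 26.1%). In the 15 MI oocytes it ran from 17.6% (MI oocyte 7) to 41.5% (MI oocyte 6), with a median of 26.2%. The MI range enclosed that of the GV oocytes of the same batch on both sides.

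The mean share of CT010467.1 was 15.6% ± 5.36 (SD, n = 6) in GV and 21.7% ± 5.73 (SD, n = 6) in MII oocytes of batch A. The ratio of MII to GV means was 1.39, and it was 1.19 without GV oocytes 4 and 5 and 1.02 by medians of the HTSeq counts described further on, both chosen after seeing the data. In batch B the means were 26.9% ± 4.34 (SD, n = 10) in GV and 28.3% ± 7.23 (SD, n = 15) in MI oocytes, a ratio of 1.05. With HTSeq counts the ratio of MI to GV means was 0.923, on the other side of 1. It was 0.830 by medians of HTSeq counts, and 0.999 by their means without MI oocytes 4, 8 and 9, both tried after seeing the data. Neither stage difference exceeded the ranges of its groups. In the order of the means, GV of batch A was lowest, then MII of batch A, GV of batch B and MI of batch B, and each neighbour in this order overlapped the next.

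Gm42418, on the strand of the rRNA itself, held from 2.36% (GV oocyte 2) to 7.36% (GV oocyte 1) of the counts of GV oocytes of batch A, with a median of 6.00%. In MII oocytes it held from 6.69% to 8.99%, with a median of 7.79%. Each of the 6 MII oocytes lay above the GV median, and the ranges overlapped. In batch B the share ran from 5.82% to 18.3% in GV oocytes (median 7.89%). It ran from 3.19% to 12.1% in MI oocytes (median 7.11%), where 4 of the 15 lay below the lowest GV oocyte and 0 above the highest.

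The mean share of Gm42418 was 5.66% ± 1.77 (SD, n = 6) in GV and 7.80% ± 1.06 (SD, n = 6) in MII oocytes of batch A, a ratio of 1.38. In batch B it was 9.17% ± 3.83 (SD, n = 10) in GV and 7.52% ± 2.61 (SD, n = 15) in MI oocytes, a ratio of 0.820. GV oocyte 7 of batch B, at 18.3%, and GV oocyte 4, at 13.1%, were the highest of their group. Without GV oocyte 7 the ratio of MI to GV was 0.921. The order of the means was GV of batch A, MI, MII and GV of batch B, and each pair of neighbours overlapped.

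AY036118, which lies wholly inside the other members, had RSEM counts in 2 of the 37 oocytes. In GV oocyte 5 of batch A it held 1.03% of the counts, and in GV oocyte 4 of that batch 0.197%. It was listed at 0 in the other 35 oocytes. GV oocytes 4 and 5 also had the highest Gm42418 for their CT010467.1 in their group, as given below. Since every base of AY036118 is shared with both other members, its counts are uncertain, and no fold between stages is given.

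**Figure D2:**
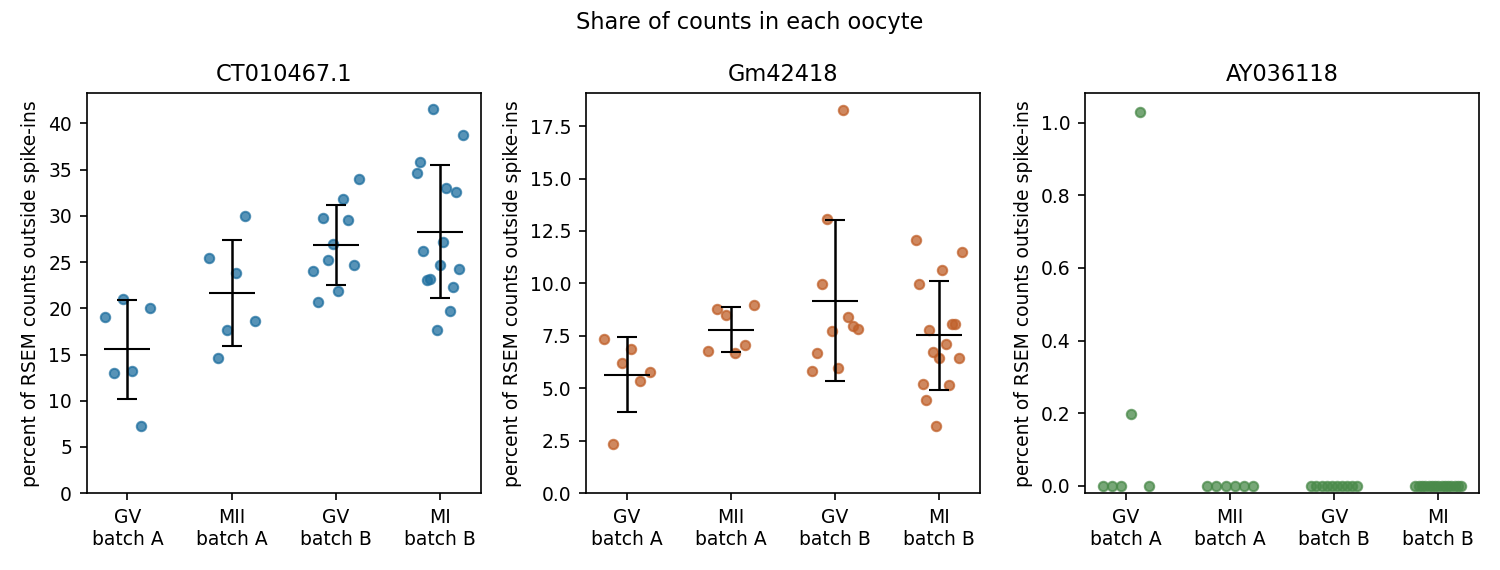
Share of RSEM counts held by each member in each oocyte; the y axes give percent of counts outside spike-ins and differ between panels, points are oocytes, and in the left and middle panels the lines give the mean and SD of each group. CT010467.1 runs from 7.24% to 41.5%, and AY036118 is above 0 in 2 GV oocytes of batch A.

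Together the members held 21.4% ± 5.96 (SD, n = 6) of the counts in GV and 29.5% ± 4.87 (SD, n = 6) in MII oocytes of batch A. In batch B they held 36.0% ± 7.04 (SD, n = 10) in GV and 35.8% ± 9.10 (SD, n = 15) in MI oocytes. The extremes were GV oocyte 5 of batch A at 13.6% and MI oocyte 15 at 50.3%. In that MI oocyte, the one with the smallest total, 1.35e+06 counts were left for all other features, against 1.40e+07 in MI oocyte 7, whose members' share was the lowest of its group at 20.8%.

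Among GV oocytes, the stage present in both batches, the members' joint share did not overlap: the highest of batch A was 27.2% and the lowest of batch B 27.4%. The shares of CT010467.1 and of Gm42418, each taken alone, did overlap between these groups. How many of all features had no overlap between them was not counted, so nothing is read from this gap. For CT010467.1 alone the ratio of the GV mean of batch B to that of batch A was 1.72, and for Gm42418 it was 1.62. The ratio for CT010467.1 ranged from 1.56 to 1.85 when each GV oocyte was left out in turn, and that for Gm42418 from 1.44 (without GV oocyte 7 of batch B) to 1.73. By medians the ratios of batch B to batch A were 1.62 for CT010467.1 and 1.32 for Gm42418, where MII over GV in batch A was 1.32 and 1.3001. Features with at least 1 count numbered 17615 on average in GV oocytes of batch B and 20582.5 in those of batch A, also without overlap. The part of the batch in the shares was not tested, and other differences between the batches cannot be told apart from it.

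Within a batch, neither of the 2 members with counts in every oocyte separated the stages by its share of counts. Over the 12927 other features tested between GV and MII in batch A, 9.82% had groups that did not overlap, and over the 12417 tested between GV and MI in batch B it was 0.0%. Because the members were chosen by these values, nothing is read from that comparison.

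Per kilobase of annotated length, CT010467.1 held on average 13.4% ± 4.03 (SD, n = 37) of the counts, Gm42418 4.21% ± 1.57 (SD, n = 37) and AY036118 0.0359% ± 0.186 (SD, n = 37). On the same scale the RNAs of the mitochondrial ribosome, which are transcribed from the mitochondrial genome and carry short A tails, had means below those of CT010467.1 and Gm42418 and above that of AY036118. The large one, mt-Rnr2, held 0.761% ± 0.208 (SD, n = 37) per kilobase and the small one, mt-Rnr1, 0.447% ± 0.122 (SD, n = 37). The lowest oocyte for CT010467.1 on this scale, at 3.92%, lay above the highest for mt-Rnr2, at 1.40%, while the lowest for Gm42418, at 1.29%, lay below it.

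The ratio between the members was taken per annotated length, as Gm42418 divided by CT010467.1. In GV oocytes of batch A it ran from 0.184 (GV oocyte 2) to 0.744 (GV oocyte 5), with a median of 0.344. GV oocytes 5 and 4, at 0.744 and 0.527, were the highest of this group and are the oocytes in which AY036118 had counts. In MII oocytes it ran from 0.238 to 0.606 (median 0.385). The ranges overlapped, and the means were 0.395 ± 0.152 (SD, n = 6) in MII and 0.406 ± 0.202 (SD, n = 6) in GV oocytes. Without GV oocytes 4 and 5, chosen after seeing the data, the ratio of MII to GV means went from 0.974 to 1.36.

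In batch B the same ratio ran from 0.232 to 0.579 in GV oocytes (median 0.308) and from 0.163 to 0.396 in MI oocytes (median 0.264). Of the 15 MI oocytes, 5 lay below the lowest GV oocyte and 4 above the GV median. The means were 0.342 ± 0.116 (SD, n = 10) in GV and 0.269 ± 0.0708 (SD, n = 15) in MI oocytes, a ratio of MI to GV of 0.786, and the ranges overlapped. AY036118 per length was 0.285 of CT010467.1 and 0.383 of Gm42418 in GV oocyte 5 of batch A, its highest oocyte.

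Spike-ins, synthetic RNAs added to the lysate, give a scale that does not depend on the other RNAs of the cell. They had 44663 to 143062 counts in batch A and at most 32 in batch B, so they were used in batch A only. CT010467.1 had from 8.87 (GV oocyte 4) to 32.0 (GV oocyte 1) counts per spike-in count in GV oocytes, with a median of 17.99. In MII oocytes it had from 12.0 to 30.3, with a median of 17.7. The MII range lay inside the GV range, and the means were 19.0 ± 9.93 (SD, n = 6) and 18.7 ± 7.32 (SD, n = 6).

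Gm42418 had from 2.50 to 12.4 counts per spike-in count in GV oocytes (median 6.50) and from 5.89 to 7.23 in MII oocytes (median 6.33). Here too the MII range lay inside that of GV, with means of 6.79 ± 3.36 (SD, n = 6) in GV and 6.49 ± 0.588 (SD, n = 6) in MII oocytes. All features other than the members together had 53.6 to 124 counts per spike-in count in GV oocytes (median 93.3) and 52.0 to 63.7 in MII oocytes (median 61.1). Each MII oocyte lay below the GV median, and GV oocyte 4 lay among the MII oocytes.

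On the spike-in scale the ratio of MII to GV means was thus 0.987 for CT010467.1, 0.955 for Gm42418 and 0.641 for all other features. Leaving out each oocyte in turn gave 0.865 to 1.15 for CT010467.1, 0.848 to 1.14 for Gm42418 and 0.591 to 0.688 for the other features. The ranges for both members include 1, but they show the influence of single oocytes and are not error intervals of the ratio. With HTSeq counts the ratio for CT010467.1 was 0.895 by means and, added after seeing the data, 0.639 by medians, and that for the other features 0.672 by means. Spike-in counts themselves averaged 93003 in GV and 133963 in MII oocytes, and whether the amount added varied between oocytes was not tested.

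**Figure D3:**
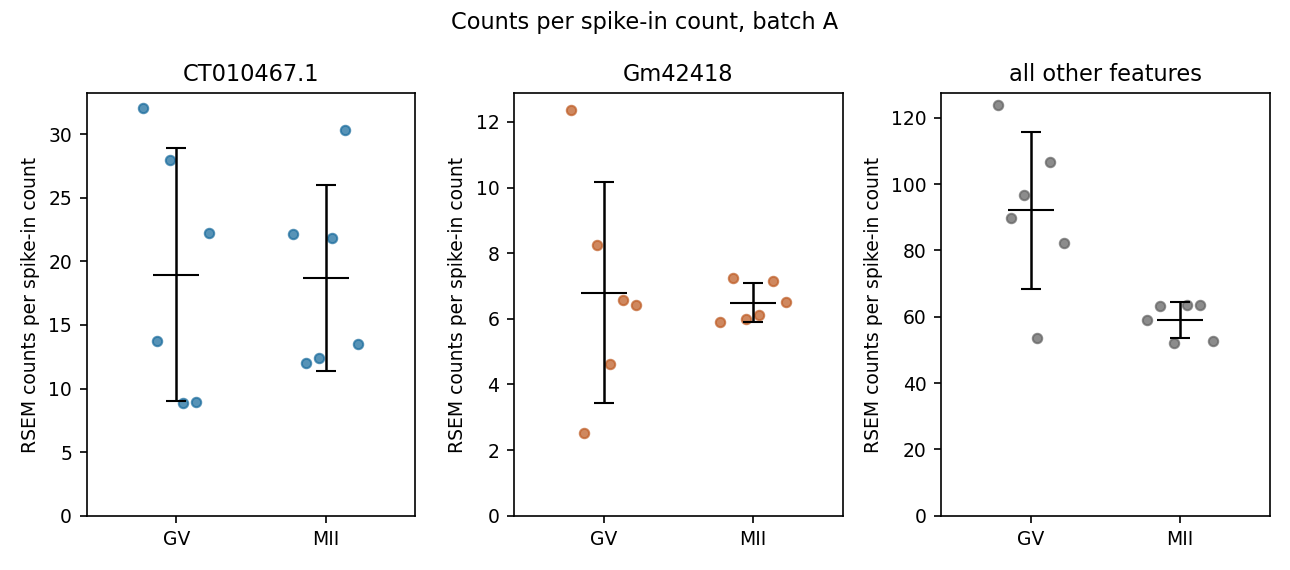
RSEM counts per spike-in count in the GV and MII oocytes of batch A for CT010467.1, Gm42418 and all other features; points are oocytes, lines are the mean and SD of each group, and the y axes differ. The MII oocytes lie inside the GV range for both members, while all other features together average 92.1 in GV and 59.0 in MII oocytes.

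The second deposited table, of reads counted per gene with HTSeq, gave another picture of the same locus. It lists 0 counts for Gm42418 and for AY036118 in each of the 37 oocytes, and its totals ran from 2.704e+06 to 2.46e+07. CT010467.1 held 4.43% ± 1.56 (SD, n = 6) of the HTSeq counts in GV and 5.69% ± 2.45 (SD, n = 6) in MII oocytes of batch A. In batch B it held 7.50% ± 1.75 (SD, n = 10) in GV and 6.92% ± 2.47 (SD, n = 15) in MI oocytes. The ranges of the stages overlapped in both batches, from 1.85% in GV oocyte 5 of batch A to 11.4% in MI oocyte 15 over all oocytes.

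The HTSeq count of CT010467.1 was from 0.109 to 0.508 of its RSEM count, with a median of 0.312 over the 37 oocytes. Over 7170 other features with a mean of at least 100 RSEM counts, the median of the same ratio was 2.04 in the middle oocyte. CT010467.1 thus had fewer HTSeq than RSEM counts where the median feature had more. The libraries were sequenced in paired ends, and whether both tables count the same unit was not tested. MI oocytes 4, 8 and 9 had the lowest ratios for CT010467.1 (0.109, 0.111 and 0.110) and also for the median feature (1.11, 1.09 and 1.05). Without these 3 oocytes the ratio of MI to GV mean RSEM shares was 1.08 for CT010467.1 and 0.829 for Gm42418. How HTSeq was set for strand and for reads that overlap several genes is not given in the sources used here.

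CT010467.1 has another, shorter transcript, whose exons lie between 39848103 and 39848827 on chromosome 17 and partly overlap the longer one. It had between 0 and 73.9 RSEM counts per oocyte, with a median of 18.4, so nearly all counts of the gene were on the longer transcript. Gm26917, a lincRNA that ends 11 bases before CT010467.1 on the plus strand, had from 2 to 794 counts, with a median of 23. In each oocyte these counts were far below those of CT010467.1 and Gm42418.

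The spread of the members among oocytes was set beside that of 1497 other features with a mean of at least 1000 counts. The coefficient of variation of the share of CT010467.1 was 34.4% in GV and 26.4% in MII oocytes of batch A, and 16.1% in GV and 25.5% in MI oocytes of batch B. For Gm42418 it was 31.3%, 13.6%, 41.7% and 34.7% in the same groups. The medians over the other features were 20.2%, 16.2%, 24.8% and 26.8%. Neither member was the more variable in every group, and each lay above the median of the other features in some groups and below it in others.

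Per count outside the members, CT010467.1 and Gm42418 went together in batch B. Spearman's rho was 0.81 over the 10 GV oocytes and 0.85 over the 15 MI oocytes, with Pearson's r of 0.78 and 0.84 on the log2 scale. In batch A rho was 0.49 over the 6 GV and -0.54 over the 6 MII oocytes, so the relation had the opposite sign in the MII oocytes. Over all 37 oocytes, centred within groups, rho was 0.68. The values share their denominator, their library and overlapping exons, and are given as a description.

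CT010467.1 per other count was lower in oocytes with more counts outside the members in batch B, with rho -0.50 over the 10 GV and -0.82 over the 15 MI oocytes. In batch A rho was 0.03 over the 6 GV and 0.31 over the 6 MII oocytes. These values share the count of the other features, which is the denominator of the first and the whole of the second. Nothing is read from their sign. With mt-Rnr2 per other count, which shares the denominator too, rho was -0.04 over the 37 oocytes centred within groups, -0.57 over the 12 of batch A and 0.22 over the 25 of batch B. The sign of that relation differed between the batches.

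The features most like CT010467.1 were sought among 7171 with a mean of at least 100 counts, by Spearman's rho over 37 oocytes of log2(CPM + 1), centred within the 4 groups, with CPM here a count scaled by the counts outside the members. They were Khsrp (rho 0.81), an RNA-binding protein that promotes messenger RNA decay, Hmga1 (0.80), a chromatin protein that binds AT-rich DNA, Fbrs (0.78), Wwc2 (0.78) and Foxo3 (0.78), a transcription factor that holds primordial follicles at rest. Gm42418 was at rank 34 with 0.68, but at rank 2595 (0.37) within batch A and rank 1 (0.82) within batch B, and the median over all features was -0.05. By Pearson's r, 4 of these 5 were again among the first 5. Within batch A alone (12 oocytes) their rho was between 0.79 (Khsrp) and 0.97 (Wwc2), and 1 of them (Wwc2, tied with others for the last place) was among the first 5 there. Within batch B alone (25 oocytes) it was between 0.67 (Wwc2) and 0.81 (Khsrp), and 2 of them were among the first 5.

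These features share libraries, and the medians of their base composition differ from the rest. The longest transcripts of the 5 had a median of 57.3% G and C, and the 100 most alike a median of 54.2%, against 47.8% over 7170 features and 43.5% in the 100 least alike. Across these 7170 features, which are not independent replicates, Spearman's rho between likeness to CT010467.1 and G and C content was 0.36, and between likeness and length 0.27. The part of base composition in the likeness was not tested.

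The 353 other features of biotype rRNA had together a median of 21.8 counts per oocyte, and 90 of them had any count. On a list of other features named here as rRNA-like, mt-Rnr2 had a mean of 143915 and mt-Rnr1 of 51342.5 counts, and Lars2, the mitochondrial leucyl-tRNA synthetase, held 0.470% ± 0.218 (SD, n = 37) of the counts. Gm26870 had a mean of 1440 counts, and Gm26917, Gm23935, Gm15564, Camk1d and Cmss1 had means of 62.6, 38.1, 146, 188 and 53.3. None shared a run of 31 bases with a member, as given above, and whether the sequences of those on the list outside the mitochondrial rRNAs are those of rRNA was not tested.

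These other features were not used to choose the members, and were tested in the fit across all features with edgeR's quasi-likelihood test and Benjamini-Hochberg adjustment. Called here means a fold change of more than 2 with an adjusted p below 0.05. Between GV and MII oocytes of batch A, mt-Rnr1 had a log2 fold change of 0.70 ± 0.21 (SE; adjusted p = 0.0247) and mt-Rnr2 of 0.70 ± 0.19 (SE; adjusted p = 0.0150), which passed the adjusted p but not the fold. With spike-in size factors these were -0.06 and -0.02. Lars2 was at 0.94 ± 0.29 (SE; adjusted p = 0.0323), likewise short of the fold. It was at 0.19 with spike-in size factors, and was called in 4 of 12 fits that each left out an oocyte.

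Gm26870 (chr9:3000282-3038313) was the feature of that list called in that contrast, 1 of 10 tested beside 2.15% of all features called higher, at a log2 fold change of 4.48 ± 0.99 (SE; adjusted p = 0.00513 by edgeR). The log2 fold change was 2.78 without MII oocyte 1, 5.56 without GV oocyte 1 and 3.47 with spike-in size factors, and it was called in each of these fits. Its level was 38.4 ± 49.8 CPM (counts scaled to a common library size) (SD, n = 6) in GV and 691 ± 1182 (SD, n = 6) in MII oocytes. Between GV and MI oocytes of batch B, 0 of the 9 features of that list tested were called by edgeR, with 4 at an unadjusted p under 0.05. Of all 12417 features, 15 were called by edgeR and 1371 had such a p. By DESeq2 0 of the list were called, beside 121 of all features. There mt-Rnr1 was at -0.31 and mt-Rnr2 at -0.36 on the log2 scale, opposite in sign to batch A; the difference between the contrasts was not tested.

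Other structural RNAs, which like rRNA are not messenger RNAs, were set beside the members. In batch A, 4 of the 7 tested on this list were called higher in MII by edgeR and 0 lower, against 2.15% and 6.32% of all features tested: Rn7s1, Rn7s2 and, named after their values were seen, Scarna2 (log2 fold change 2.39) and Rpph1 (1.10). Rn7s1 and Rn7s2, copies of the RNA of the signal recognition particle that have identical RSEM counts, cannot be told apart and so count as 1 measurement (3 of 6 in place of 4 of 7), were both at 1.54 ± 0.26 on the log2 scale (SE; adjusted p = 0.000944 by edgeR). Rn7sk, an RNA that holds the elongation factor P-TEFb inactive, was at 0.83 ± 0.22 (SE; adjusted p = 0.0134) and Rn7s6 at 1.00 ± 0.36 (SE; adjusted p = 0.0568), neither of them called. With spike-in size factors the values were 0.87 for Rn7s1 and Rn7s2, 0.09 for Rn7sk, 0.13 for Rn7s6 and 0.42 for Rpph1, none of them called, and 1.70 for Scarna2 (adjusted p = 0.0229 by edgeR), which was called. With HTSeq counts Scarna2 was at 2.15 (adjusted p = 0.000582 by edgeR) and Rn7s6 at 1.70 (adjusted p = 0.00101 by edgeR), both called, and Rpph1 at 1.04 (adjusted p = 0.199 by edgeR), not called. Leaving out GV oocyte 2 or MII oocyte 3 also ended the call of Rpph1 (0.95 in each). With HTSeq counts Rn7s1 was at 0.90 (adjusted p = 0.474 by edgeR) and not called, and Rn7s2 at 1.37 (adjusted p = 0.00144 by edgeR) and called. In batch B, 0 of 6 were called by edgeR and 0 had an unadjusted p under 0.05, beside 15 and 1371 of all 12417 features. By DESeq2 0 were called, beside 121 of all features.

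The genes that make and process rRNA were followed through 7 lists, of which 197 genes were in the table. In batch A, 187 of them were tested by edgeR: 0 were called higher and 12 lower in MII than in GV oocytes, which is 6.42%. Of the 12927 features tested, 6.32% were called lower and 2.15% higher, so the share called lower was near the background where the fold was asked. With the adjusted p alone, 36 of the 187 were lower and 5 higher, beside 1490 lower and 1172 higher of all 12929 features. The median log2 fold change was -0.13 over the pathway genes and 0.01 over all features. With spike-in size factors the median log2 fold change moved to -0.72 over all features and to -0.86 over the 187 pathway genes. In that fit 67 of the 187 were called, all lower, beside 3788 lower and 131 higher of all 12929 features.

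The genes called lower came from each of the 7 lists. Of the RNA polymerase I genes, Znrd1, a small subunit of the enzyme, went from 23.5 ± 10.2 to 3.51 ± 1.62 CPM (SD, n = 6 each), and fell by 2.49 on the log2 scale (SE 0.31, adjusted p = 6.45e-05 by edgeR). Polr2k, a subunit shared by the nuclear RNA polymerases, was at -1.31. Polr1a and Polr1b, the large subunits of polymerase I, were at -0.04 and 0.06, and the initiation factors Ubtf and Rrn3 at -0.53 and 0.20, none of them called.

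Emg1, a methyltransferase of the small-subunit rRNA, was at -1.41, and Ngdn, a protein of the small-subunit processome, went from 50.8 ± 5.69 to 21.5 ± 3.43 CPM (SD, n = 6 each), close to the fold threshold. Fcf1, a processome protein with a nuclease domain, was at -1.56, and the large-subunit factors Nle1 and Gnl3l at -1.61 and -1.14. Gnl3l was called in 8 of 12 and Ngdn in 6 of 12 fits that each left out an oocyte. Gtf3c6, of the polymerase III factor that starts small rRNA genes, was at -1.52. Rnaset2b, at -1.79, and Rnaset2a, at -1.22, are near-identical copies and uncertain: with HTSeq counts they were at -0.13 and -0.16 and were not called. Znhit3, at -1.29, completes the 12 with Npm2.

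Npm2, the oocyte nucleoplasmin that takes part in forming the nucleolus-like body, went from 453 ± 99.1 to 161 ± 21.6 CPM (SD, n = 6 each), without overlap of the groups. It fell by 1.24 on the log2 scale (SE 0.13, adjusted p = 1.46e-05 by edgeR). The general nucleolar genes Ncl, Fbl and Npm1 were at 0.24, -0.39 and 0.05, none of them called.

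In batch B, 188 pathway genes were tested between GV and MI oocytes and 0 were called by edgeR, with 25 at an unadjusted p under 0.05, beside 1371 of all 12417 features, and 0 called by DESeq2. Of all 12417 features tested, 0.121% were called in either direction by edgeR, which is 15 features. That count was 0 without MI oocyte 7 and 82 without MI oocyte 9, and DESeq2 called 121 features. The median log2 fold change was 0.10 over the pathway genes and 0.02 over all features. Npm2 was at -0.01, Rrn3 at 0.12, Polr1a at -0.01, Polr1b at 0.56, Ubtf at 0.31, Ncl at 0.04, Fbl at -0.72 and Npm1 at 0.08. Whether the contrasts of the 2 batches differ was not tested.

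The libraries were those of oocytes by their markers. All 14 oocyte markers, among them Gdf9, Bmp15, Zp3 and Nlrp5, had counts in each of the 37 oocytes. The 14 markers of cumulus and granulosa cells summed to 12.9 to 77.4 CPM, scaled by the counts outside the members, against 7006 to 32316 for the oocyte markers. The oocyte markers averaged 25694 CPM in GV and 16838 in MII oocytes of batch A, where 5 of the 14 were called lower in MII by edgeR, against 6.32% of all features tested, and 11591 in GV and 9235 in MI oocytes of batch B. The most abundant of the cumulus and granulosa markers was Cyp19a1, with a mean of 186 counts, Areg was at 0 in all oocytes, and Amhr2, Amh and Ptx3 had counts in 1, 2 and 2. Gja1 and Ccnd2, 2 of the 4 genes of the cumulus and granulosa list that were tested in batch B, were called lower in MI oocytes by edgeR, beside 4 of all 12417 features (log2 fold change -3.42 and -3.69). They were not called with HTSeq counts, with the replicate number as a block or without MI oocyte 7, where 0 of all features were called. Of the 4 genes of that list tested in batch B, 1 had a positive log2 fold change. Mean counts of Has2 were 10.5 in GV and 30.1 in MI oocytes of batch B, and those of Cyp19a1 208 and 177. The summed level of the cumulus and granulosa list averaged 41.5 CPM in GV and 26.7 in MI oocytes of batch B. The part of either list in the members' values was not tested.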

How the data were processed

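Single-oocyte libraries (Smart-seq2) were sequenced in paired ends. Per the submitters' processing notes and the study's methods, the authors trimmed reads with Trim Galore 0.6.4 and estimated the deposited expected counts per gene and transcript with RSEM 1.3.1 on mm10, GENCODE VM20 and the spike-in sequences. The other deposited table holds read counts by HTSeq 0.12.4 after alignment by the authors with STAR 2.7.6a; how HTSeq was set for strand and overlaps is not given in the sources used here. Neither table was normalized, and reads were not reanalysed.

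Members were found by symbol through a GENCODE gene table that named 53861 features; locus and sequences came from GENCODE M21 and RefSeq on GRCm38; whether the members are the same in VM20 was not checked, and lengths, overlaps and the ratio between members rest on M21. The members and lists were chosen with earlier results of these data known. Totals per oocyte ran from 2.71e+06 to 1.94e+07 expected counts. No 2 oocytes had identical counts.

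The test ran in R 4.3.3 on rounded expected counts with edgeR 4.0.16 (quasi-likelihood, TMM, filterByExpr, Benjamini-Hochberg adjusted p under 0.05, fold over 2), with spike-ins left out and the members in the fit but without a test. Standard errors were the log2 fold change over the square root of F. The step was tested on simulated data. Alternatives were DESeq2 1.42.0, RLE and spike-in factors, no filter, HTSeq counts, the members left out, the adjusted p alone, a replicate block and left-out oocytes. Ratios, figures and correlations were made with matplotlib 3.10.9, scipy 1.17.1, pandas 2.3.3 and numpy 2.4.6 in Python 3.11.15.

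Named genes were the members, mt-Rnr1, mt-Rnr2, 8 nucleolar and polymerase I genes, rRNA-like features with a mean of at least 10 counts, structural RNAs with at least 100, up to 2 called genes per direction and pathway list with the smallest adjusted p, and the 5 features most like CT010467.1. Rnaset2a, Znhit3, Scarna2 and Rpph1 were named after their values were seen, to complete the count, as were markers beyond the lists' sums. Of 209 pathway symbols, 197 matched.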

Additional observations from a re-analysis of the deposited data

Results flagged for a closer look

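Of 28 groups of oocytes and measures checked for an oocyte far from the others of its group, 4 held such an oocyte, and chance gives about 1 in 20. That rate is for independent, normally distributed values and was not measured here, and these measures share oocytes. AY036118 held 1.03% of the counts in GV oocyte 5 of batch A, where the next oocyte had 0.197% and the other 4 had 0. The HTSeq count of CT010467.1 was 0.508 of its RSEM count in GV oocyte 2 of batch A, where the next oocyte was at 0.392. That oocyte also had the lowest Gm42418 share, at 2.36%. Gm26917, next to the members, had 794 counts in MII oocyte 1, where the next MII oocyte had 117. The same MII oocyte had 29518 features with at least 1 count, against 22244 in the next, and its shares, 25.5% for CT010467.1 and 6.77% for Gm42418, were inside the ranges of the other MII oocytes. The causes were not tested. The group of 15 MI oocytes was too large for this check.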

How the results depend on the processing

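The count of pathway genes called between GV and MII oocytes was 12. It was 41 with the adjusted p alone (5 higher, 36 lower, since no fold was asked), beside 1172 higher and 1490 lower of all 12929 features. With spike-in size factors it was 67, where the cause was not tested. It was 10 to 15 over fits that left out an oocyte (1 higher and 13 lower without MII oocyte 6), 12 with DESeq2 (1 higher, 11 lower), 11 with RLE, 15 without the filter, 11 with HTSeq counts and 12 without the members. With the replicate number as a block, 10 pathway genes were called in batch A and 0 in batch B. In a check of this pairing, deviations from the group means were correlated between same-numbered oocytes of the stages. The correlations were -0.385 to 0.359 in batch A and -0.211 to 0.134 in batch B. The best match of an oocyte in the other group carried its own number for 1 of 6 GV and 1 of 6 MII oocytes in batch A. In batch B it did so for 0 of 10 GV and 1 of 15 MI oocytes. The check gave no sign that the numbers pair the oocytes, and it cannot exclude that they do. Between GV and MI oocytes the count was 0 under each alternative, also with HTSeq counts without MI oocytes 4, 8 and 9, added after seeing the data. The count over all features there, 15, was 0 to 82 when an oocyte was left out (0 without MI oocyte 7, 82 without MI oocyte 9; 2 to 21 without any other), 121 with DESeq2, 40 without the filter and 0 with HTSeq counts or the replicate block. Over all features in batch A, 278 higher and 817 lower became 895 and 964 without the filter, 131 and 3788 with spike-in factors, 101 and 676 with HTSeq counts, and 163 and 753 without MII oocyte 1. The filter was used because an unfiltered test in earlier processing gave too many false calls on simulated counts.

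Leaving out an oocyte gave ratios of 1.26 to 1.496 for the share of CT010467.1 in MII over GV and 1.02 to 1.09 in MI over GV, and 1.24 to 1.47 and 0.784 to 0.921 for Gm42418. With counts outside the members as denominator, the ratios of GV in batch B over batch A were 2.12 and 2.06, against 1.72 and 1.62. Among the alternatives run, the ratio of MI to GV shares of CT010467.1 moved by more than the spread between oocytes (an SD of 0.322 on the log2 scale) by medians of HTSeq counts (0.830 against 1.05), added after seeing the data, and no other of these ratios did. Such an SD is of single oocytes and not the error of a ratio of groups, so a ratio within it was not thereby unchanged. For MII over GV, 1.39 became 1.02 by the same medians, within its SD of 0.495. By the same medians the ratio of GV in batch B over batch A was 1.56. HTSeq counts give no ratio between the members, since Gm42418 and AY036118 are listed at 0. The division of reads between overlapping features enters the shares, and its part was not tested. Counting error at this depth was small, with intervals at most 0.116 percentage points wide, and other effects of depth were not tested.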

Other observations

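The features least like CT010467.1 over the 37 oocytes were chosen after their values were seen. They were Fbxw28 (Spearman's rho -0.88), Fbxw19 (-0.85), Trnt1 (-0.84), Fbxw14 (-0.83) and Fam118b (-0.80), of which 3 belong to a family of F-box genes. Fbxw28 was last of the 7171 features in batch B alone (-0.86) and was at -0.87 in batch A alone. The longest transcripts of these 5 had a median of 43.2% G and C. The values share libraries and the count of other features with CT010467.1, and no test was made.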
